A study of Mus musculus with 3 samples.

Results

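In the H3K27ac profile of an Arid1a heterozygous knockout clone of MIN6 cells, 3462 regions carried a called peak that had no counterpart in either companion clone. MIN6 is a mouse insulinoma line used as a model of the pancreatic beta cell. Per the labels, all 3 clones, wild type, heterozygous and homozygous knockout, had received Cas9 and the same guide RNA against Arid1a by lentivirus, were selected with blasticidin and puromycin, and were grown from picked colonies. PCR genotyping and Western blotting for ARID1A then sorted them by genotype, so that, per the labels, the wild-type clone also went through both infections. Peak names of the wild-type list carry a tag, GAL4, that the labels do not explain, and the identity of that clone is taken from its label. Each genotype is represented by 1 library, and a difference between genotypes cannot be told apart from a difference between clones or between libraries. Overlapping peaks of the 3 lists were merged, on genome build mm10, into 52938 regions, of which 29237 held a heterozygous peak. A region was kept as heterozygous-only where no wild-type or homozygous peak overlapped it or lay within 1 kb. The 3462 regions kept were 6.54% of all merged regions and 11.8% of those with a heterozygous peak. The same rule kept 15.7% of the regions of the homozygous list (5126 of 32635) and 24.8% of the regions of the wild-type list (9880 of 39889), while 19504 regions held a peak of all 3 lists. The regions were thus chosen by the presence and absence of called peaks in these libraries, so their peak values are given as a description and carry no test.

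Acetylation of lysine 27 on histone H3 is deposited by the p300 and CBP acetyltransferases and marks nucleosomes beside active promoters and active enhancers. Arid1a encodes the DNA-binding subunit that defines the canonical BAF form of the SWI/SNF chromatin remodelling complex, which keeps enhancers accessible and is known to share many of its sites with AP-1 transcription factors. Heterozygous loss is of interest because several SWI/SNF subunits are dosage-sensitive, and the title of the series links Arid1a loss to beta cell regeneration and to signalling by the epidermal growth factor (EGF).

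The sequences below are promoters that held a heterozygous-only region, shown so that the gene starts described later can be read as sequence. Each is the 250 bases before an annotated start, 5′ to 3′ in the direction of the gene, from RefSeq on GRCm38.p6, the assembly of mm10. Krt18, Mdfic, Egfr, Mecom and Pparg are gene starts on which results below turn. Anxa10, Gng2 and Ugt1a6a are protein-coding promoters with an AP-1 match. The Mecom sequence belongs to a start inside the gene and not to its outermost start. Capitals mark matches to any of the motifs searched, which were AP-1 (TGANTCA), CRE (TGACGTCA), TEAD (GGAATG), FOXA (TGTTTAC), homeobox (TAATTA), E-box (CAGCTG or CATCTG) and the palindromic NRF1 consensus, each on both strands and with overlapping matches allowed.
Krt18, chr15:102027966-102028215, plus strand: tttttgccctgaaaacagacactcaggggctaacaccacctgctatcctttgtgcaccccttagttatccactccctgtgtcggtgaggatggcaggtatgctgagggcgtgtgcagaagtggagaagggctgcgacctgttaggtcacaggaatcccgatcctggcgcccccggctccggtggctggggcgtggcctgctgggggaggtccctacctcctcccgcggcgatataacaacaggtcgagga
Mdfic, chr6:15720411-15720660, plus strand: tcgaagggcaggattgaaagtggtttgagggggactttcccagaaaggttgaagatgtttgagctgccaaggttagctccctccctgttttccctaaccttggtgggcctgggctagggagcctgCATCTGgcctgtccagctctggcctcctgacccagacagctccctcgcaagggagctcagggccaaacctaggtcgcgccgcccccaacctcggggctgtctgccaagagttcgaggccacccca
Egfr, chr11:16751953-16752202, plus strand: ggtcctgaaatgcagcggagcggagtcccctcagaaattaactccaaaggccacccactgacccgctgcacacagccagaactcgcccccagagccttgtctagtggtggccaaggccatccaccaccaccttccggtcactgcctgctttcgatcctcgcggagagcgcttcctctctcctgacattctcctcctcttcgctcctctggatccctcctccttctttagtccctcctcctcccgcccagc
Mecom, chr3:30013205-30013454, minus strand: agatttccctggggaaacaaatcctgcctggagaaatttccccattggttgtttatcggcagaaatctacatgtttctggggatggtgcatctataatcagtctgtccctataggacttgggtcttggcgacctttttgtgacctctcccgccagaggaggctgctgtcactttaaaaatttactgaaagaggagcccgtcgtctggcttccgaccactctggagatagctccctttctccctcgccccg
Pparg, chr6:115360894-115361143, plus strand: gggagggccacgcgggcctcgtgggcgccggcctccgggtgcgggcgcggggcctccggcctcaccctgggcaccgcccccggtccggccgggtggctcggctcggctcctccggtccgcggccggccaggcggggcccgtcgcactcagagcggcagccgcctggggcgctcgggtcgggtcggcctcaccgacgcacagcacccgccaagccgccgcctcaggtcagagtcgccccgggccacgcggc
Anxa10, chr8:62123194-62123443, minus strand: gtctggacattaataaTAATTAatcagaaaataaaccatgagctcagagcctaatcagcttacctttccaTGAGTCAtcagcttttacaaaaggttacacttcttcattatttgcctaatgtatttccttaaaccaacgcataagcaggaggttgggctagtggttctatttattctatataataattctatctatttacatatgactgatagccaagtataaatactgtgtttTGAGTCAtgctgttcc
Gng2, chr14:19976694-19976943, minus strand: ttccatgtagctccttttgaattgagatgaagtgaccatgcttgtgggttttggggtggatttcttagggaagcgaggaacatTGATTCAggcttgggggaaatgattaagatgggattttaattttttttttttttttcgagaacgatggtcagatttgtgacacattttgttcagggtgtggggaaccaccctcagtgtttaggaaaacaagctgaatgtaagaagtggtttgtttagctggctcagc
Ugt1a6a, chr1:88134559-88134808, plus strand: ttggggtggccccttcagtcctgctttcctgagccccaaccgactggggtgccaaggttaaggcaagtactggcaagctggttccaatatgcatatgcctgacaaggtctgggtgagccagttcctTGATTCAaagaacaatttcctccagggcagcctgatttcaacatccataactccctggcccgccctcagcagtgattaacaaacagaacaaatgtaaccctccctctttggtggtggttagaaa

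The GC content of these stretches ranged from 33.6% at Anxa10 to 82.4% at Pparg, with 1 and 38 CpG dinucleotides, respectively. Krt18, Egfr, Mecom and Pparg held none of the motifs, and Mdfic held a single E-box. At Anxa10, which encodes an annexin, AP-1 matches began 180 and 16 bases before the start, and the heterozygous-only region covered the nearer of them. At Gng2, a G protein gamma subunit gene, the match 167 bases before the start lay inside the region. At Ugt1a6a, a glucuronosyltransferase gene, the match 124 bases before the start lay outside it. A match is a run of letters and does not show that a factor binds.

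Depth of the 3 libraries could be judged only from the peak lists, and its part in the counts was not tested. The wild-type, heterozygous and homozygous lists held 41490, 31365 and 34298 peaks. Read totals were not at hand. The summit pile-up, meaning the reads stacked at the top of a peak, was solved from the deposited values and had medians of 49, 47 and 54 reads, respectively. The lowest summit background, taken as a measure of relative depth, was 1.25 times the heterozygous value in wild type and 1.00 times it in the homozygous list. Absence of a peak means that the authors' caller listed none there, not that acetylation was absent. All 12 beta cell markers of a fixed list had a heterozygous region. Of the markers of other cells, 4 of 6 alpha cell, 1 of 2 delta cell, 1 of 1 PP cell, 1 of 5 acinar, 3 of 5 duct, 1 of 5 mesenchymal, 1 of 3 immune and 2 of 3 endothelial genes had a heterozygous region. Those with none included the acinar genes Cpa1, Prss1, Ptf1a and Amy2a5, the duct genes Sox9 and Spp1, the delta cell gene Sst, the alpha cell gene Irx1, and the mesenchymal genes Vim, Col1a1, Col1a2 and Pdgfrb.

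Most heterozygous-only regions were low and narrow. Their median summit pile-up was 25 reads, from 11 to 212, against 51 in the 25773 other heterozygous regions with a solved pile-up. Median fold enrichment over the local background, the authors' own ratio for each peak, was 5.0 (1.86 to 16.1) against 6.21 in the other regions. The median of −log10 q, the caller's confidence, was 9.61 (3.24 to 96.9) against 21.9, and the median width was 329 bp against 731 bp. Regions kept by the same rule from the homozygous and wild-type lists were also narrow, with median widths of 330 and 359 bp. Only 488 of the 3462 regions, 14.1% (95% Wilson interval 13.0 to 15.3, counting error only), reached the median −log10 q of the heterozygous list. A summit background of at least 5 times the lowest of the list was found at 711 of them, 20.5%, and at 38.6% of the other heterozygous regions. The low height of these regions stands beside every count below, and its part in those counts was not tested.

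**Figure D1:**
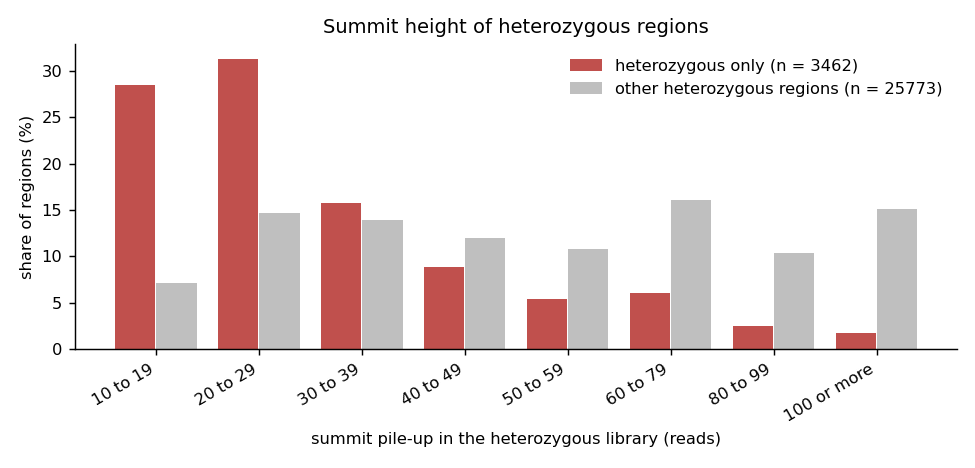
Share of regions (y axis, percent) by summit pile-up in the heterozygous library (x axis, reads) for heterozygous-only regions (red) and for other heterozygous regions (grey). Of the heterozygous-only regions, 28.5% had 10 to 19 reads and 31.3% had 20 to 29 reads, against 7.07% and 14.6% of the others.

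The rule kept peaks of the other lists more than 1 kb away, and beyond that limit their distances varied widely. The median distance to the nearest wild-type or homozygous peak was 17.0 kb, with 604 regions at 1 to 5 kb, 590 at 5 to 10 kb and 423 at over 100 kb. The median was 20.9 kb to the nearest wild-type and 27.8 kb to the nearest homozygous peak. Of the 4581 heterozygous regions that overlapped no other peak, 1119 lay within 1 kb of one and were left out. The regions just inside that limit were near Plk5 (1004 bp from the nearest other peak, fold enrichment 4.73), Baalc (1007 bp, 4.64) and Ccdc33 (1016 bp, 2.43). Those just outside it were near Tnrc6a (994 bp, 2.91), Ttbk2 (981 bp, 3.90) and Rsu1 (979 bp, 4.40), with fold enrichments in the same range.

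The heterozygous-only set lay more between genes than either other clone-specific set. Regions were classed by protein-coding genes, as within 1 kb of a gene end (the start or the far end), inside a gene, or intergenic. Intergenic regions made up 50.9% of the set (1761 regions, interval 49.2 to 52.5), against 40.9% (39.5 to 42.2) of the homozygous-only and 40.5% (39.5 to 41.5) of the wild-type-only regions. Regions inside genes made up 42.8% (1482 regions), against 53.4% and 51.7%. Gene ends made up 6.33% (219 regions, 5.56 to 7.19), against 5.74% and 7.81%, whereas they held 58.8% of the regions shared by all 3 lists. No gene end lay within 100 kb of 892 heterozygous-only regions, 25.8%, against 19.3% of homozygous-only and 19.4% of wild-type-only regions. The intervals of the intergenic share did not overlap between the heterozygous-only set and either other set, but they cover counting error only. They also treat regions as independent, although 40.8% of the heterozygous-only regions lay within 1 kb of another, so they are too narrow. No test across clones can be made with 1 library each. Under the other distances, a stricter q and lists of equal length, the intergenic share stayed between 48.6% and 52.8% in the heterozygous-only set and between 39.1% and 43.3% in the homozygous-only set. Where the gene's strand was known, 120 of 163 gene-end regions, 73.6% (66.4 to 79.8), lay at the start, against 96.4% for regions in all 3 lists. The share was 67.0% (60.6 to 72.8) for homozygous-only and 70.9% (67.1 to 74.4) for wild-type-only regions.

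**Figure D2:**
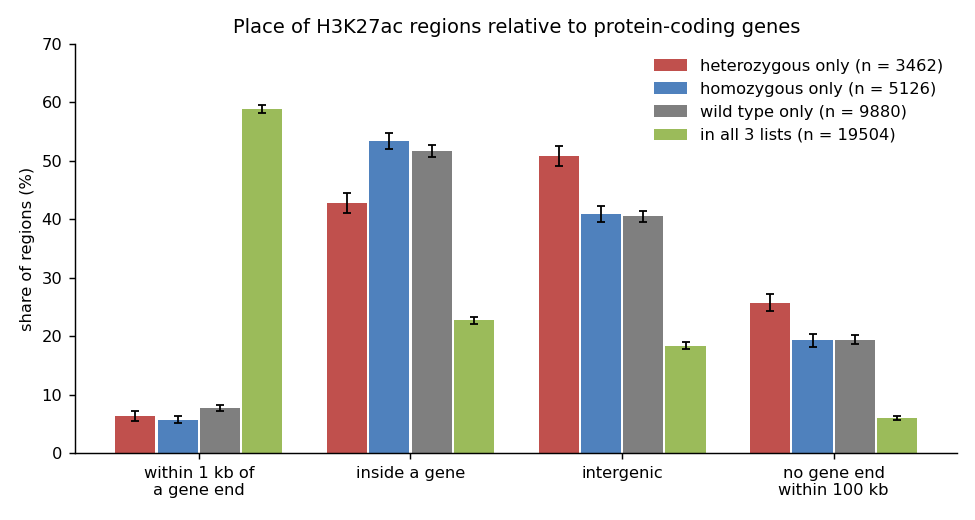
Share of regions (y axis, percent) in each class of place (x axis) for heterozygous-only, homozygous-only, wild-type-only and shared regions; bars carry 95% Wilson intervals, which cover counting error only. The heterozygous-only bar is at 50.9% for intergenic regions and the homozygous-only bar at 40.9%, while shared regions lead at gene ends with 58.8%.

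Each region was given to the protein-coding gene whose start or far end was closest, up to 100 kb away. In this way 2570 of the regions fell to 1631 genes, 11.4% of the 14329 genes that had any region in any list. At least 2 regions fell to 602 genes (4.2%) and at least 3 to 196 genes (1.37%). In the larger homozygous-only and wild-type-only sets, 372 and 867 genes had at least 3. Nearness does not show that a region acts on a gene. Neighbours within 1 kb of each other were counted separately. Of the assigned regions, 1255 (48.8%) belonged to genes whose end was acetylated in all 3 clones, and 397 (15.4%) to genes with no region in the other lists. These shares were 55.3% and 12.8% for homozygous-only regions, and 48.6% and 19.5% for wild-type-only regions.

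Unc5b, which encodes a receptor for the guidance cue netrin, had 11 heterozygous-only regions, more than any other gene. The gene counted 3, 17 and 3 regions in the wild-type, heterozygous and homozygous lists. Its start was acetylated in all 3 clones, and the added regions ran across the gene body and up to 60.2 kb away, 8 inside the gene and 3 between genes, with fold enrichments of 3.08 to 7.38. Only 2 of the 11 had a summit background under 5 times the lowest of the list. Mecom, which encodes the zinc finger transcription factor EVI1, had 8 heterozygous-only regions and 1, 10 and 0 regions in the same order of lists, with 4 of the 8 on the lower background. Of these, 5 lay in a run of 16.0 kb at its outermost start (chr3:30493577-30509532), and 1 lay on an internal start (chr3:30013142-30013423, fold enrichment 8.04). Egfr, the EGF receptor gene, had 0, 6 and 1 regions. The wild-type list held none at the gene, and the homozygous list held 1 inside it.

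**Figure D3:**
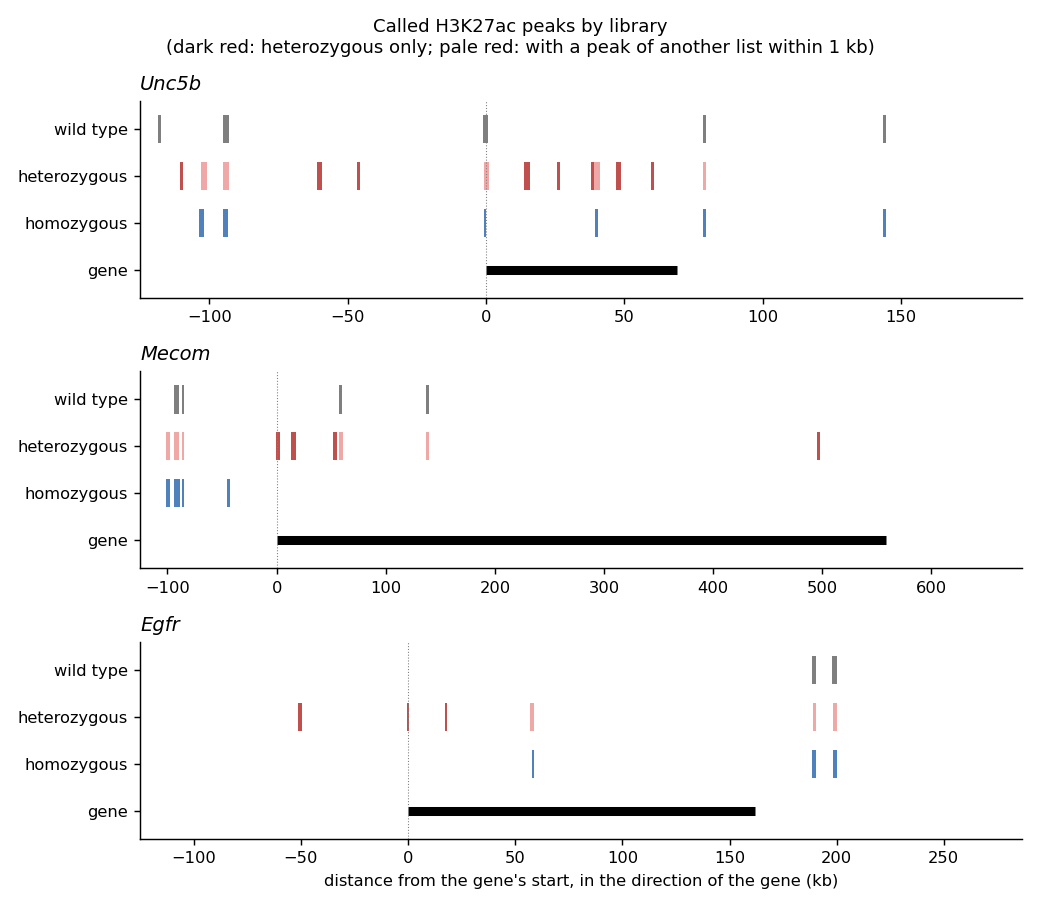
Called peaks at Unc5b, Mecom and Egfr, by library (rows) and distance from the gene's start in the direction of the gene (x axis, kb); the black bar is the gene, dark red boxes are heterozygous-only peaks, pale red boxes heterozygous peaks with a peak of another list within 1 kb, and narrow peaks are widened to stay visible. Dark red boxes lie along the Unc5b body, in which the wild-type row is empty past the start, at the Mecom start and at the Egfr start.

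The other genes with the most regions held a mixture of patterns. Eva1a, which encodes a membrane protein linked to autophagy, had 9 heterozygous-only regions and 0, 10 and 3 regions in the 3 lists, but only 1 of the 9 was on the lower background. Casz1, a zinc finger transcription factor gene, had 8, with 12, 14 and 4 regions. Plxna1, a semaphorin receptor gene, had 6, with 1, 7 and 0. Ly86, whose product pairs with the receptor CD180 on immune cells, had 6, with 5, 7 and 0. Gm51582 had 6, and these were all the regions it had in any list. Galnt2, an enzyme that starts O-linked glycans, had 6 beside 9, 8 and 3. Bod1, a mitotic chromosome alignment gene, had 6 beside 7, 15 and 9, and none of the 6 was on the lower background. Zmiz1, a transcriptional coactivator gene, had 6 beside 14, 17 and 12, and Cxxc5, a CXXC zinc finger gene, 6 beside 11, 16 and 9. At Bod1, Zmiz1 and Cxxc5 the wild-type clone already had many regions, unlike at Eva1a, Mecom and Plxna1. On the lower background there remained 5 regions at Casz1, 4 at Ly86, 3 at Zmiz1, 2 each at Plxna1, Gm51582 and Galnt2, and 1 at Cxxc5. With other peaks kept 10 kb away, Cxxc5 and Zmiz1 had 0, and Casz1, Bod1 and Galnt2 had 2 each. With a gene window of 50 kb Galnt2 had 0, Bod1 3, Gm51582 3 and Mecom 5.

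**Figure D4:**
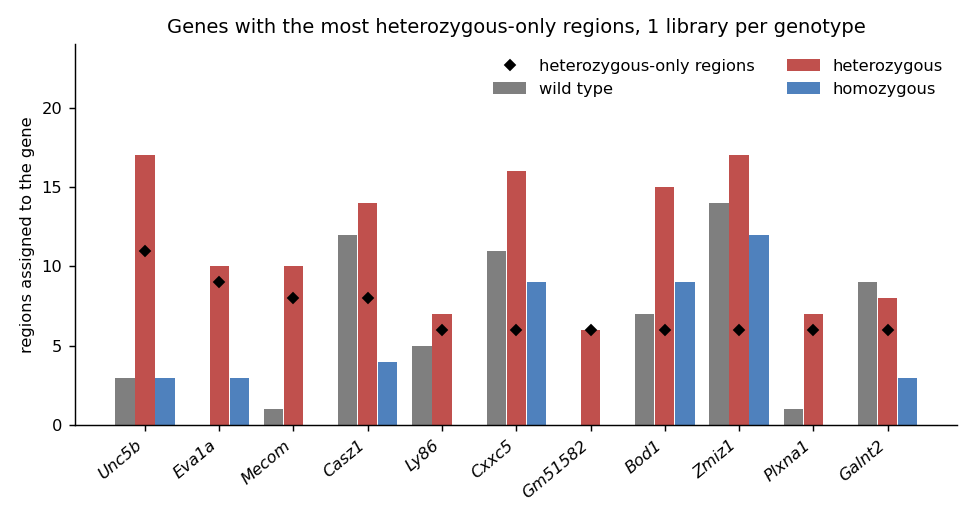
Regions assigned to each of 11 of the 12 genes with the most heterozygous-only regions (y axis, number of regions) in wild type (grey), heterozygous (red) and homozygous (blue) libraries, 1 library each; black diamonds give the number that were heterozygous-only. Unc5b stands at 3, 17 and 3 regions with 11 heterozygous-only, and Gm51582 has regions in the heterozygous library alone.

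At 269 genes, 1.88% of those with any region, every region in the series was heterozygous-only, and 29 of these genes had at least 3. Every region was homozygous-only at 358 genes and wild-type-only at 915 genes. Acot12, an acetyl-CoA thioesterase gene, had 5, covering its start (fold enrichment 5.37, pile-up 22) and its body, where the highest reached a pile-up of 104 and a −log10 q of 43.9. Fbxl7, a ubiquitin ligase subunit gene, also had 5, with fold enrichments of 3.45 to 6.52. The 4 regions of Pparg, the nuclear receptor that directs adipocyte differentiation, included its start at chr6:115360894-115361802 (fold enrichment 6.16, pile-up 24). That region covered the CpG-dense promoter printed above, and the nearest peak of another list was 46.4 kb away. The actin-linking protein gene Msn had 4 regions from 0.088 kb to 11.9 kb from its nearest end, with fold enrichments of 5.47 to 8.14. Col26a1, a collagen gene, Impg2, Gadl1, Nckap5 and Clec2g had 4 each. These genes with 4 or 5 regions were picked after their values were seen.

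The 10 regions with the highest −log10 q were tall peaks that both other lists lacked. The highest of all lay on the start of Pde1a, a calmodulin-dependent cyclic nucleotide phosphodiesterase gene, at chr2:80196259-80197262, with a fold enrichment of 9.28, a pile-up of 165 and a −log10 q of 96.9. The nearest wild-type peak was 117 kb away, and a further heterozygous-only region at chr2:80195511-80196056 lay beside it. Inside Ppcdc, a coenzyme A synthesis gene, a region reached a −log10 q of 79.2 and a pile-up of 150. Inside Unc5b, the region at chr10:60804703-60805664 reached 71.6 and a pile-up of 144, with the nearest peak of another list 13.2 kb away. The remaining 7 had −log10 q values of 62.9 to 69.1 and lay near Pnpla1, a skin barrier lipid enzyme gene, Dtna, a dystrobrevin gene, Gcg, Dagla, an endocannabinoid synthesis gene, Ercc6l, a mitotic helicase gene, the transcription factor gene Klf6 and the ribosome assembly gene Rbm19. Of the 10, only those at Dtna, Gcg and Ercc6l, at 6.86 to 8.46 reads, had a summit background under 5 times the lowest of the list. The others stood on 9.38 to 18.7 reads.

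The region at Gcg, the proglucagon gene that marks alpha cells, lay inside the gene at chr2:62479992-62480958, 2.70 kb from its nearest end, with a fold enrichment of 10.8 and a pile-up of 101. It was the 1 heterozygous region of the gene. Wild type had none, with the nearest wild-type peak 145 kb away, and the homozygous library had 3, the nearest 2.23 kb from it. The called places near Gcg thus differed between the knockout clones.

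At gene ends, the highest −log10 q after Pde1a belonged to Slc6a19, a neutral amino acid transporter gene, with a pile-up of 212 on a background of 58 reads and a fold enrichment of 3.61. Dok1, an adaptor downstream of receptor tyrosine kinases, followed with a −log10 q of 44.4, with homozygous and wild-type peaks 1.29 and 1.40 kb away. Chsy3, a chondroitin synthase gene, had a fold enrichment of 11.2, and the nearest other peak was 505.8 kb away. The region on the start of Krt18, a simple epithelial keratin gene, at chr15:102028133-102028953 had a fold enrichment of 8.95 and a pile-up of 57. The region on the start of Mdfic, whose product binds and restrains transcription factors, at chr6:15720531-15721323 had a fold enrichment of 11.5, with the nearest wild-type peak 595 kb and the nearest homozygous peak 16.9 kb away. Angptl8, a secreted regulator of lipoprotein lipase, Cacna2d3, a calcium channel subunit gene, and Fam162b had fold enrichments of 8.72, 7.87 and 8.04. Unlike the Pde1a, Chsy3 and Mdfic regions, those of Slc6a19 and Dok1 stood within 10 kb of peaks present in the other clones.

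Heterozygous-only regions tended to come in groups, about as often as in the homozygous-only set. Within 25 kb of another, 1737 of them (50.2%) formed 763 clusters, of which 150 had at least 3 members, while 51.2% of homozygous-only and 59.0% of wild-type-only regions were clustered. Within 1 kb of another heterozygous-only region lay 1414 (40.8%), and such neighbours were counted separately. Joined at 1 kb, the 3462 became 2730. The most regions in a cluster was 6, found at 2 places. The cluster of 6 over 24.3 kb at chr10:99227219-99251519 lay beside Dusp6, a phosphatase that switches off ERK, and Poc1b. Its 3 regions nearer Dusp6 had fold enrichments of 5.23, 5.56 and 7.33 at 11.7 to 20.6 kb from the gene, and Dusp6 had 2, 6 and 2 regions in the 3 lists. The other cluster of 6 lay inside Reln, which encodes the extracellular guidance protein reelin (chr5:22093010-22120223, fold enrichments 3.55 to 5.43). The next clusters, of 5 regions each, lay in Unc5b, in Zfp423 (chr8:87782934-87791805), a zinc finger gene of BMP and Notch signalling and adipocyte commitment, and in the formin gene Diaph3 (chr14:86936854-86969810).

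Counting all regions inside a gene, however far from its ends, Zfp423 had 9 heterozygous-only regions, with 4, 11 and 2 regions in the 3 libraries. Reln had 8 (5, 11 and 4), and Sema3a, a secreted semaphorin gene, had 7 (1, 8 and 2). Slc39a11, a zinc transporter gene, had 7 (4, 10 and 1), and Shisa9, a glutamate receptor auxiliary gene, had 6 (3, 9 and 0). At Cdh13, a cadherin gene, the 7 stood beside 18, 19 and 6 regions. Long genes offer more room, and Cdh13 spans 1185 kb, against 69.0 kb for Unc5b.

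A total of 18 lists of genes were read for where the regions fell, each beside the background of 11.4% of genes with at least 1 heterozygous-only region. The list genes were chosen for their function but with earlier results of these data known, so the shares are a description. Genes with many acetylated regions can hold more heterozygous-only regions. Regions within 1 kb of each other were counted separately. Among ErbB receptors and their regulators, 7 of the 18 genes with any region had at least 1, with 12 heterozygous-only regions of 53 heterozygous regions (22.6%, against 11.8% over all heterozygous regions). None of the 8 EGF family ligand genes with a region had 1, among 10 heterozygous regions, too few to be told apart from the 11.8% over all. None of the 19 cell cycle genes with a region had 1, among 36 heterozygous regions, and Arid1a itself had none beside 5, 4 and 6 regions in the 3 libraries.

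On the receptor side of the EGF pathway, Egfr had 4 heterozygous-only regions. The region on its start, at chr11:16752074-16752661, had a fold enrichment of 5.0 and a pile-up of 37. Further regions lay 17.5 kb into the gene (fold enrichment 2.93) and at 49.7 and 50.4 kb upstream (3.73 and 3.85). These further regions stood on summit backgrounds of 11.2 to 11.6 reads, above 5 times the lowest of the list. The region on the start stood below that, at 6.6 reads. Erbb2, which encodes the preferred partner receptor, had 1 inside the gene (fold enrichment 3.20). Erbb3, the kinase-impaired receptor that binds neuregulins, had 1 at 0.407 kb from its nearest end (fold enrichment 8.12, pile-up 25). Whether that end is the start or the far end of Erbb3 was not read. Shc3, an adaptor that couples receptors to Ras, had 3, with 0, 7 and 6 regions in the 3 libraries. Errfi1, a feedback inhibitor of EGFR, Cblb, a ubiquitin ligase for activated receptors, and Plcg1, a phospholipase that EGFR activates, had 1 each with fold enrichments of 4.24, 5.90 and 3.74. All 12 regions but 1, at Shc3, were under the median −log10 q of the list.

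Downstream, 7 of 30 genes of the MAPK and immediate early list had 13 heterozygous-only regions, 12.5% of their heterozygous regions and close to the 11.8% over all. Besides Dusp6 with 4, the list gave Spry2, a feedback inhibitor of receptor tyrosine kinases, with 2 (fold enrichments 5.52 and 7.74), Etv1, an ETS factor gene that ERK signalling acts on, with 2 (6.10 and 7.07), and Fos with 2 (3.78 and 4.02). Fosl1, a partner of Jun in AP-1, had its 1 heterozygous region at a gene end (fold enrichment 4.55, pile-up 12), and neither other library had any.

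Guidance genes held 23 heterozygous-only regions. Of 25 netrin, semaphorin, slit and ephrin genes with any region, 7 had these regions, which were 27.4% of their 84 heterozygous regions. Unc5b supplied 11 of the 23. The ligand genes Ntn1 and Ntn4 had 2 each, and Ntn4 had 1 on its start at chr10:93641012-93642056 (fold enrichment 6.25, pile-up 39), with 2, 6 and 2 regions in the 3 libraries. The semaphorin gene Sema3a had 4, with 0, 4 and 1 regions assigned to it, and Sema3e had 2, which were its only regions in any library. Slit1 and Efnb2 had 1 each.

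Among TGF-beta and BMP genes, 11 of 25 had 19 heterozygous-only regions, 23.2% of 82 heterozygous regions. The BMP target Id2, a dominant-negative helix-loop-helix factor, had 5 at 14.5 to 94.0 kb from its nearest end, with 4, 10 and 5 regions in the 3 libraries. Smad3, the TGF-beta signal transducer, had 3 inside the gene, the highest with a fold enrichment of 6.37 and a pile-up of 71. Acvr1, a BMP type I receptor gene, and Tgif1, a repressor of SMAD targets, had 2 each. In the Wnt and Notch list, 5 of 27 genes had 10 regions, 15.9% of 63. Pofut2, an O-fucosyltransferase gene, had 4, with 4, 9 and 6 regions. Dll4, a Notch ligand gene, had 2. Lfng, which modifies Notch by glycosylation, had 2, and Jag1, a further Notch ligand, had 1 at its start (fold enrichment 6.95, pile-up 18), and neither gene had any region in another library.

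Genes of beta cell identity also held such regions. Of 21 beta cell transcription factor genes, 8 had 12, 16.7% of their 72 heterozygous regions. Pax6, which maintains islet hormone expression, had 3, with 7, 5 and 6 regions in the 3 libraries, 2 of them inside the neighbouring gene Elp4, where known Pax6 enhancers lie. Neurod1 had 2, with 2, 5 and 2 regions. In the list of secretory function, 7 of 34 genes had 10, only 8.20% of 122 heterozygous regions. These included 2 each at Chgb, a granule protein gene, Pcsk2, a prohormone convertase gene, and Syt7, a calcium sensor gene. Slc2a2, the glucose transporter gene of beta cells, had 5, 1 and 8 regions in the 3 lists, and its 1 heterozygous region was heterozygous-only, at the far end of the gene (fold enrichment 7.68, pile-up 20).

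Genes that mature beta cells normally keep silent had the largest share of the 18 lists, with 16 of 50 heterozygous regions (32.0%) at 7 of 14 genes. The next shares were close, at 30.8% in the mesenchymal, immune and endothelial list and 27.4% in the guidance list. Shares of homozygous-only or wild-type-only regions in these lists are not given. Pdgfra, a growth factor receptor gene of mesenchymal cells and of juvenile islets, had 5 of its 6 heterozygous regions in the set, with 1 wild-type and 0 homozygous regions, fold enrichments of 3.62 to 5.37 and 3 of the 5 inside the gene. Nfib, a nuclear factor gene, had 4, also with 1, 6 and 0 regions. Smad3, counted above, is on this list too. Pdgfra, Nfib and Smad3 supplied 5, 4 and 3 of the 16, and each of these genes had neighbouring regions less than 1 kb apart. At Pdgfra, all regions but 1 stood on summit backgrounds of 11.4 to 11.9 reads, above 5 times the lowest of the list. Also above it were 2 Smad3 regions (10.1 and 10.3 reads) and the Acot7 region (14.6 reads). The remaining regions of the list were below it. Of the 5 mesenchymal markers, Vim, Col1a1, Col1a2 and Pdgfrb had no heterozygous region, while Zeb2 had 3, of which 1 was heterozygous-only, and the part of other cells in these counts was not tested. In the mesenchymal, immune and endothelial list, 3 of 13 genes had 8 of 26 heterozygous regions (30.8%), of which Ly86 held 6.

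In the alpha, delta and PP cell list, 2 of 8 heterozygous regions were heterozygous-only. In the acinar, duct and keratin list these were 5 of 21 (23.8%), at 5 of 10 genes. The 5 were at Cela1, an elastase gene with a region on its start in the heterozygous library alone (fold enrichment 5.74, pile-up 23), Krt18, Krt19, Cdh1 and Epcam. Wild type had regions at Krt18, Cdh1 and Epcam too (2, 1 and 4), and the Epcam region lay 78.5 kb from the gene. Not all 5 genes thus mark another lineage. Hhex, which delta cells need, had 1 and no region in another library. The progenitor list had 3 of 37 heterozygous regions (8.11%, under the 11.8% over all), at Gata4, Gata6 and Myc, of 12 genes with any region. The Gata4 region overlapped a gene end with a fold enrichment of 8.68 and a pile-up of 24, and the Myc region, 70.9 kb away, reached 8.76 and 50. Of neuronal genes, 6 of 23 had 15 regions, 14.7% of 102, with 4 each at Iqsec3 and Dlgap1 and 2 each at Shank2 and Celf4 among them. The 4 at Dlgap1 lay side by side at chr17:70001687-70004450, on summit backgrounds of 18.2 to 20.1 reads. Those at Iqsec3, Shank2 and Celf4 lay in pairs less than 1 kb apart, so these counts are not of separate sites. SWI/SNF subunit genes had 5 at 4 of 26 genes, 8.62% of 58, including 2 inside Arid1b, the paralog of Arid1a. Ccn1, a YAP target, had 2, which were its only regions, and YAP and TEAD targets had 3 of 33 heterozygous regions in all. Housekeeping genes had 2 of 36. Genes named in these lists with a single region were picked after their values were seen.

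Of the promoter windows in the RefSeq table, each from 250 bases before to 50 bases after a start, 119 of 32851 (0.362%) were overlapped by 116 heterozygous-only regions, at 112 genes. These genes were 71 protein-coding and 41 long noncoding RNA genes. The windows held a median of 8 CpG dinucleotides, the same as homozygous-only promoters, against 23 in promoters acetylated in all 3 clones and 7 over all windows. The AP-1 motif, in the form printed above, occurred in 18 of 119 windows (15.1%, interval 9.79 to 22.6). It occurred in 13.3% of homozygous-only (20 of 150), 7.38% of wild-type-only and 3.98% of shared promoters, and in 7.81% of all windows. The CRE motif occurred in 0 of 119, with an upper bound of 3.13%, against 3.79% of shared promoters and 1.79% of all windows. NRF1 occurred in 1 of 119 (0.840%), against 12.1% and 4.60%. In homozygous-only promoters both CRE and NRF1 occurred in 0 of 150, with an upper bound of 2.50%. The TEAD, FOXA, homeobox and E-box motifs occurred in 12.6%, 4.20%, 6.72% and 29.4%, against 14.7%, 3.65%, 5.29% and 30.6% of all windows. CpG content differed between these sets, and its part in the motif shares was not tested. The AP-1 share of the heterozygous-only promoters had an interval that overlapped that of the homozygous-only ones (8.80 to 19.7). Protein-coding genes with an AP-1 match were 2010003K11Rik, Anxa10, Creb5, Dhrs9, Gng2, Htatip2, Mndal, Spint1 and Ugt1a6a.

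A heterozygous-only region at chr13:83738726-83738925 overlapped the hairpin of the microRNA gene Mir9-2 (83738814 to 83738885, plus strand), with a fold enrichment of 3.98, a pile-up of 26 and the nearest wild-type peak 5.41 kb away. miR-9 is best known from neuronal differentiation and is also described as a regulator of insulin release. Its mature forms, from RefSeq on GRCm38.p6, are shown with the seed, bases 2 to 8, in capitals.
mmu-miR-9-5p: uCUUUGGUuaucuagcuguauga
mmu-miR-9-3p: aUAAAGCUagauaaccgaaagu

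The seeds of these forms differ, so they address different sets of targets. A further heterozygous-only region lay close by at chr13:83738107-83738308 (fold enrichment 3.52, pile-up 24). Of the 1761 intergenic regions, 385 (21.9%) lay in a long noncoding RNA gene, against 18.9% of homozygous-only, 17.9% of wild-type-only and 25.8% of shared intergenic regions.

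Heterozygous-only regions were spread over all chromosomes. Their share of the heterozygous regions of a chromosome was lowest on chromosome 11 (185 of 2312, interval 6.96% to 9.18%) and highest, at 15.1%, on chromosome 6 (194 of 1289, 13.2% to 17.1%). On the X chromosome it was 8.29% (65 of 784). Chromosome 2 was the autosome on which this share, 13.5% (301 of 2228, 12.2 to 15.0), was above the homozygous-only share of homozygous regions, 11.4% (251 of 2195, 10.2 to 12.8). With lists of equal length these were 17.0% and 11.9%.

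**Figure D5:**
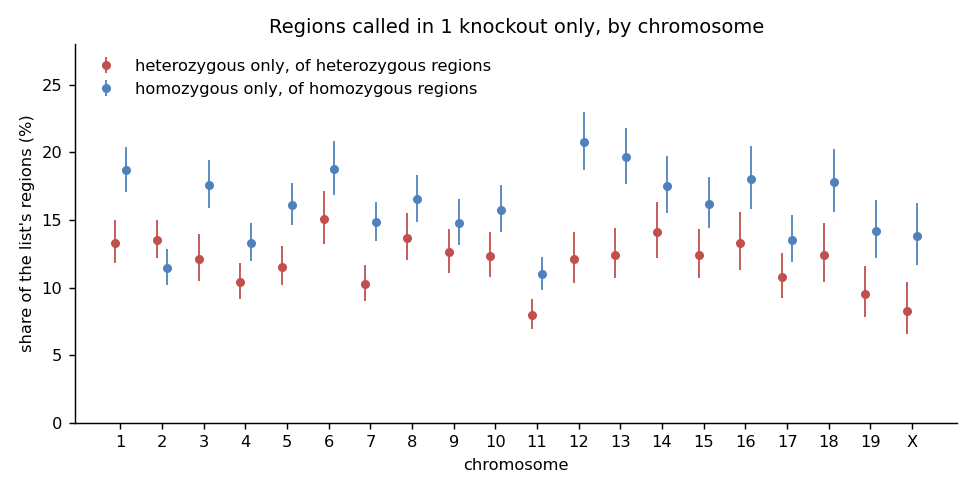
Share of a list's regions that were called in that list only (y axis, percent) by chromosome (x axis; chromosome Y, with 25 heterozygous regions, is left out) for the heterozygous (red) and homozygous (blue) lists; lines are 95% Wilson intervals for counting error only. The red points lie below the blue ones on every chromosome shown except 2, where they stand at 13.5% and 11.4%.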

How the data were processed

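H3K27ac ChIP-seq libraries (antibody Abcam Ab4729) of 3 MIN6 clones, 1 per genotype, were analysed from peak lists that the authors called with MACS2 on mm10 after bcl2fastq, per the submitters' processing notes. Aligner, control, threshold and versions were not given in the sources used here. Per peak, the deposited lists give a score (10 times −log10 q as a whole number in all but a few peaks), a fold enrichment, which is a ratio to local background, −log10 p and −log10 q. The height of a peak can be compared only within a list. Summit pile-up and background were solved from the deposited fold and −log10 p to within 0.001, treating p as the upper tail of a Poisson distribution and adding 1 read to pile-up and background in the ratio. Read depth is otherwise unknown.

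Peaks overlapping by at least 1 bp were merged, and regions with a heterozygous peak and no other peak within 1 kb were kept; bedtools 2.31.1 gave the same regions. Genes came from a RefSeq table (21883 protein-coding genes, GRCm38.p6) without exons, so that exons, introns and UTRs are not given. Regions went to the gene whose start or far end was closest, up to 100 kb. Named were the 12 genes with the most regions, the 10 regions and 10 gene-end regions with the highest −log10 q, the 5 largest clusters, list genes with at least 2 regions, ErbB list genes with at least 1, Arid1a, and the 3 regions nearest the limit on either side; a few genes that meet this rule are not reported here. The 18 lists (388 entries, all matched) and the regions were chosen with earlier results of these data known. Shares have 95% Wilson intervals for counting error only. With 1 library per genotype no test was made. Scripts (Python 3.11.15, scipy 1.17.1, pandas 2.3.3, numpy 2.4.6, matplotlib 3.10.9) were tested on simulated data.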

Additional observations from a re-analysis of the deposited data

How the results depend on the processing

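A total of 12 alternatives were tried, of which leaving out members on a high background was chosen after seeing the data. The heterozygous-only set held 4581 regions with no distance limit and 2268 at 10 kb, and its share of heterozygous regions was 15.7% with no distance, 9.78% at 5 kb, 7.76% at 10 kb, 15.4% with lists of equal length, 16.4% with overlap of 50% of the shorter peak and 9.41% without high-background regions. The gene-end share was 9.02%, 7.19% (10 kb), 7.56% (equal length), 9.15% (overlap) and 9.01% with gene ends widened to 2 kb. The inside-gene share was 41.0% at 5 kb, 40.0% at 10 kb and 40.0% without high background. The intergenic share was 48.6%, 52.8% (10 kb), 48.4% (overlap) and 53.2% (without high background). The share at or above the list median of −log10 q was 12.7%, 12.3% (overlap) and 9.49% (without high background). The clustered share was 42.8%, 52.3% (equal length), 42.2% (overlap), 44.7% with a cluster distance of 10 kb and 42.4% without high background. Where no setting is named, there was no distance limit.

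Genes with at least 3 heterozygous-only regions numbered 104 at 10 kb, 298 with the overlap rule, 119 with a gene window of 50 kb and 108 without high background, against 196. Without high background, Unc5b kept 2 regions, Mecom 4 and Eva1a 1. No paired analysis was possible because each genotype had 1 library and no result comes from a test; for the same reason no library could be left out.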

Other observations

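Ranked by fold enrichment in place of −log10 q, the 3 highest regions of the heterozygous-only set were not among the 10 highest by −log10 q. The highest fold enrichment was 16.1 at chr8:69728530-69728866 near Zfp869, a KRAB-type zinc finger gene, with a pile-up of 43 and the nearest other peak 11.6 kb away. It was 15.0 at chr16:77121246-77121557 near Usp25, a deubiquitinase gene, with a pile-up of 44, and 14.3 at chr7:48131858-48132218 near Gm51464. These were chosen after their values were seen.

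Genes whose every region was heterozygous-only also included Cyp26b1, which degrades retinoic acid, with 3 regions (fold enrichments 4.86 to 6.96), Sox8, a SoxE transcription factor gene, with 3 (4.31 to 6.64), Prss22, a serine protease gene, with 3 (4.29 to 7.12), and Cdc42ep1, an effector of the Cdc42 GTPase, with 3 (3.44 to 5.36). At Glyatl3, an acyltransferase gene, all 3 lay within 0.76 kb of the gene's nearest end, be it the start or the far end. These were chosen after their values were seen.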
